A study of Homo sapiens with 6 samples.

Results

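The genes described here are coding genes of human chromosome 19 whose names do not mark them as zinc finger genes. They were selected on measured values, since they come from the authors' table of genes that differed between libraries labelled shKMT5A and libraries labelled shNC. A row was a member if its chromosome was 19, its class was protein-coding, and its name did not begin with a zinc finger prefix (ZNF, ZFP, ZSCAN, ZKSCAN, ZIM, ZIK, HKR1) or with 1 of several other family names, such as SLC, KCN, TRIM or NLRP. This left 93 of the 186 coding chromosome 19 rows and 93 of all 2885 genes of the table. Of the 93 coding rows left out, 83 were zinc finger genes and 10 belonged to the other families.

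Chromosome 19 is the most gene-dense human chromosome and carries most of the genome's KRAB zinc finger genes, which lie in long tandem clusters. These genes encode DNA-binding repressors, and many of them silence endogenous retroviruses through the co-repressor TRIM28. Between and inside the clusters lie many coding genes of other kinds, among them immune receptors, complement, lipid carriers, secreted proteases and replication factors.

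The RNA came from RKO cells, a long-established line from a human colorectal carcinoma, and made 6 libraries. Of these, 3 carried the treatment label shKMT5A and a genotype label of KMT5A knockdown, and the other 3 carried the label shNC with a wild-type genotype. A short hairpin RNA (sh) directs the degradation of a matching transcript, and KMT5A is the enzyme that adds a single methyl group to lysine 20 of histone H4. The labels name no age of culture, number of clones or hairpin sequence, and do not say whether libraries of a group came from separate cultures, so the spread given below may be technical.

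The targeted gene goes against its label. KMT5A had 4015, 3898 and 3297 normalized counts in the libraries labelled shKMT5A, against 1298, 1245 and 1307 in the shNC libraries, a ratio of 2.91. Directions below are therefore those of the libraries labelled shKMT5A and say nothing of what lower KMT5A transcript does. The members took 39021 to 40907 reads in the libraries labelled shKMT5A (2.063% to 2.115% of the reads of the table) and 50779 to 53376 reads in the shNC libraries (3.723% to 3.897%). Reads outside the table were not analysed here, so no library's full depth can be given. Of 10 epithelial markers that fit the labelled cell type, 4 were in the table (KRT8, KRT18, KRT19 and CDH17), and their summed level ran from 45686 to 47197 in the libraries labelled shKMT5A and from 144309 to 157139 normalized counts in the shNC libraries. CDH17 was higher and the 3 keratins lower. Of 14 leukocyte markers 4 were in the table, CD8A higher and CORO1A, GZMB and CD79A lower, with sums of 114 to 139 in the libraries labelled shKMT5A and 489 to 548 in the shNC libraries. The table also held 6 of 12 markers of fibroblasts or endothelium, 3 higher and 3 lower, with sums of 95.3 to 121 and 172 to 181 in the same order of groups. A sum is carried by its most abundant markers.

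More members were lower than higher in the libraries labelled shKMT5A. Of the 93 members, 36 (38.7%) were higher and 57 (61.3%) lower, whereas 57.4% of the whole table was called higher and 42.6% lower (limma, adjusted p of 0.05). Among the 1710 coding genes of other chromosomes kept under the same name rule, 1022 were higher (59.8%). Rows of the table all have a log2 fold change of 1 or more in size and an adjusted p below 0.05 between these same groups, so every member had to differ. All 93 passed limma and none overlapped between groups, against 99.9% called and 99.7% without overlap in the whole table, and nothing is read from these counts. In bulk RNA, fewer cells of a type and less RNA per cell cannot be told apart. The members nearest to the fold threshold were CCNE1 and PALM, with log2 fold changes of -1.001 and -1.011 in the authors' deposited table. Genes outside it were not analysed here.

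Most differences were small. The median log2 fold change was 1.44 among the 36 higher members and -1.41 among the 57 lower ones, against 1.68 and -1.44 among the higher and lower coding genes of the other chromosomes. Fold changes are differences of log2(normalized count + 1), which understates the change of genes with few reads. Only 24 members reached an absolute log2 fold change of 2, and 11 of these were higher and 13 lower. The higher members had few reads in the shNC libraries: their median was 143 normalized counts in the libraries labelled shKMT5A and 46.6 in the shNC libraries, while the lower members had medians of 50.8 and 205.9. No member changed sign under any of the scalings tried.

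**Figure D1:**
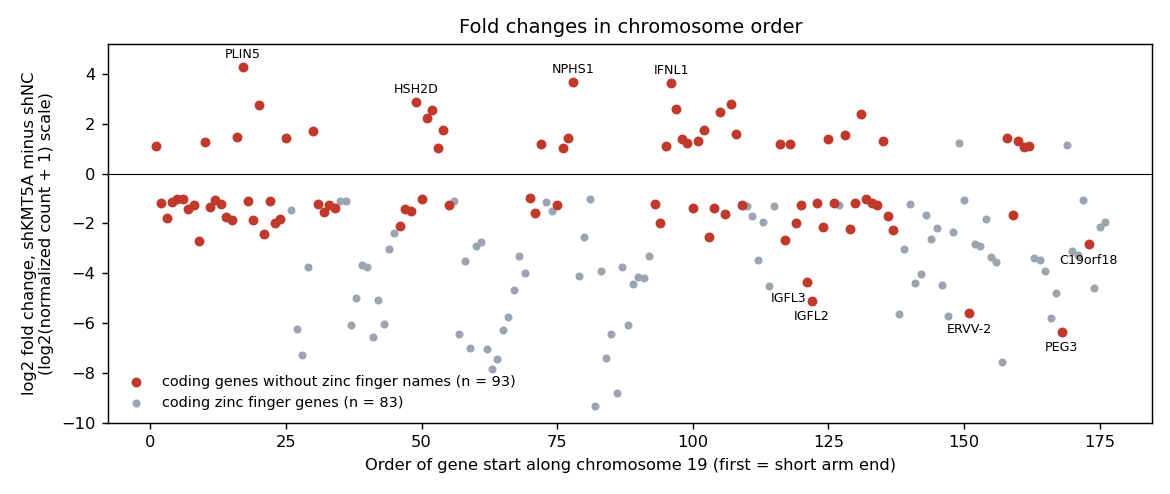
The log2 fold change (shKMT5A minus shNC, vertical axis) of each member and of each zinc finger row of chromosome 19, in the order of their starts along the chromosome (horizontal axis, order only). The 93 members form bands above and below 0, while 81 of the 83 zinc finger genes lie below 0, and ERVV-2, PEG3 and C19orf18 lie among them.

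The name of the gene set does not hold for at least 1 member. PEG3 encodes a C2H2 zinc finger protein and is the only member that the authors' columns of gene description and factor family mark as a zinc finger gene. It was kept because the rule reads names only, and counts inside clusters are also given without it. The descriptions of DPF1 and UHRF1 name other finger domains, which were not counted here.

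The zinc finger genes themselves set the frame for the comparison by position. Of 265 coding zinc finger genes annotated on the chromosome in GENCODE 29 (GRCh38), 83 (31.3%) were in the table. Of these 81 were lower, the median log2 fold change was -3.54, and 38 had no read in any library labelled shKMT5A. Clusters were defined as runs of at least 5 annotated zinc finger genes with neighbouring starts at most 500 kb apart, which gave 9 clusters holding 250 of the 265 genes. Of the coding genes kept by the name rule, 88 annotated genes start inside a cluster and 1054 outside. The table held 6 of the genes inside (6.82%) and 87 of those outside (8.25%).

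Direction showed little relation to the distance from a cluster. Inside clusters 2 of 6 members were higher and 4 lower (33.3% higher). Within 1 Mb of a cluster 12 of 30 were higher and 18 lower (40.0% higher), and farther away 22 of 57 were higher and 35 lower (38.6% higher). The median distance from a cluster was 1.45 Mb for the higher and 1.40 Mb for the lower members. Spearman's correlation of log2 fold change with distance was 0.195 over the 93 members and 0.151 over the 87 outside clusters, given as a description, since neighbouring genes and all values share the same 6 libraries. Counting from the nearest annotated zinc finger gene instead, 17 members lay within 100 kb of one, 7 higher and 10 lower. Within 100 kb of a zinc finger gene that was itself in the table lay 7 members, of which EMP3 was higher and 6 were lower, among them SIPA1L3, LYPD5, LIG1, ERVV-2 and C19orf18.

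**Figure D2:**
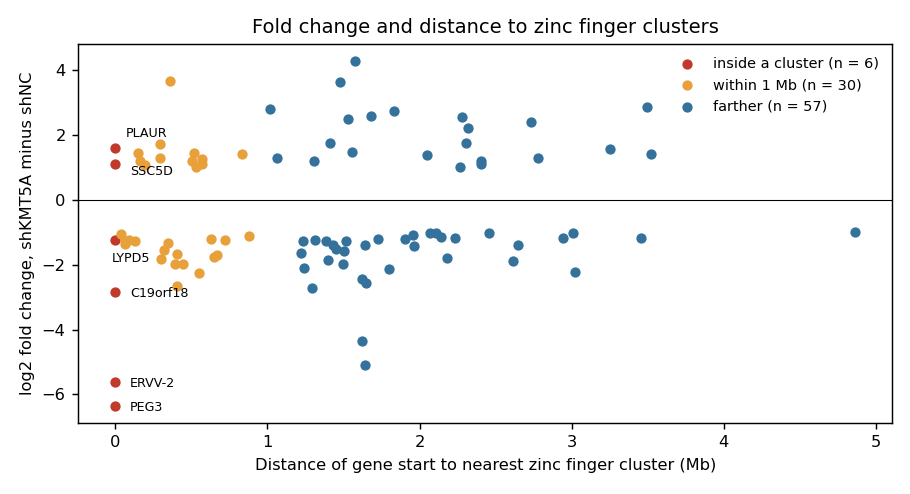
The log2 fold change of the 93 members (vertical axis) against the distance of the gene start from the nearest zinc finger cluster in Mb (horizontal axis), coloured by zone. Points above and below 0 occur at all distances up to 3.5 Mb, and 3 of the 6 members inside clusters are among the 6 lowest of all members.

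The members inside clusters split by size of change. PEG3, an imprinted gene expressed from the paternal allele (ENSG00000198300, chromosome 19, 56810077 to 56840728, minus strand), had values of 0, 0 and 0 normalized counts in the libraries labelled shKMT5A, against 80.0, 77.0 and 83.5 in the shNC libraries. It was at least 78.5-fold lower, taking a floor of 3 reads over the group that allows for counting error alone. As for the other lower members, every shNC library was above every library labelled shKMT5A. PEG3 overlaps the annotated zinc finger gene ZIM2 on the same strand, so reads of the 2 genes may have been divided between them, and ZIM2 was not in the table.

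ERVV-2, the envelope gene of an endogenous retrovirus with known expression in placenta (ENSG00000268964, 53044738 to 53051076, plus strand), also had no read in the libraries labelled shKMT5A, against 47.6, 35.6 and 63.9 normalized counts in the shNC libraries. This was at least 48.0-fold lower by the same floor. ERVV-1, its near neighbour and relative, was not in the table, and reads shared between such copies make the value uncertain. C19orf18, which encodes a predicted membrane protein (ENSG00000177025, 57958437 to 57974534, minus strand), had no read in the libraries labelled shKMT5A either, and 8.57, 6.74 and 3.93 in the shNC libraries. It was at least 6.28-fold lower. These 3 were the only members without a read in any library labelled shKMT5A, and they start inside the last 2 clusters towards the end of the long arm.

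The nearest zinc finger genes of the table were lower as well, though closer annotated ones, ZNF160 for ERVV-2 and ZIM2 for PEG3, were not in the table. C19orf18 lies 2519 bases from ZNF606, which had 1.047, 2.05 and 0 normalized counts in the libraries labelled shKMT5A, against 49.5, 55.8 and 29.5 in the shNC libraries. ERVV-2 lies 81827 bases from ZNF816, with 49.0 ± 1.46 and 104 ± 19.4 (SD, n = 3 each), a much smaller change than that of ERVV-2. ZNF83, in the same cluster as ERVV-2, was higher, with 1521 ± 55.97 and 644 ± 22.4 normalized counts. The zinc finger gene of the table nearest to PEG3 was ZNF470, 221166 bases away, with no read in the libraries labelled shKMT5A and 27.0 ± 2.97 normalized counts in the shNC libraries.

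The other 3 members inside clusters changed by less. LYPD5, a member of the LY6/PLAUR family of small surface proteins, lies 86 bases from the zinc finger gene ZNF283 and had 45.0, 39.9 and 39.7 normalized counts in the libraries labelled shKMT5A, against 71.4, 128 and 108 in the shNC libraries (log2 fold change -1.24 ± 0.217, SE). PLAUR, the receptor of urokinase, starts in the same cluster and was higher, with 2600, 2873 and 2373 against 875, 816 and 886 normalized counts. SSC5D, a soluble scavenger receptor, was higher with 35.6, 36.9 and 33.8 against 14.3, 14.4 and 19.7. The groups did not overlap for any of these genes, as for every member. Members of 1 cluster thus lay on both sides of 0, as in the cluster of PLAUR and LYPD5.

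**Figure D3:**
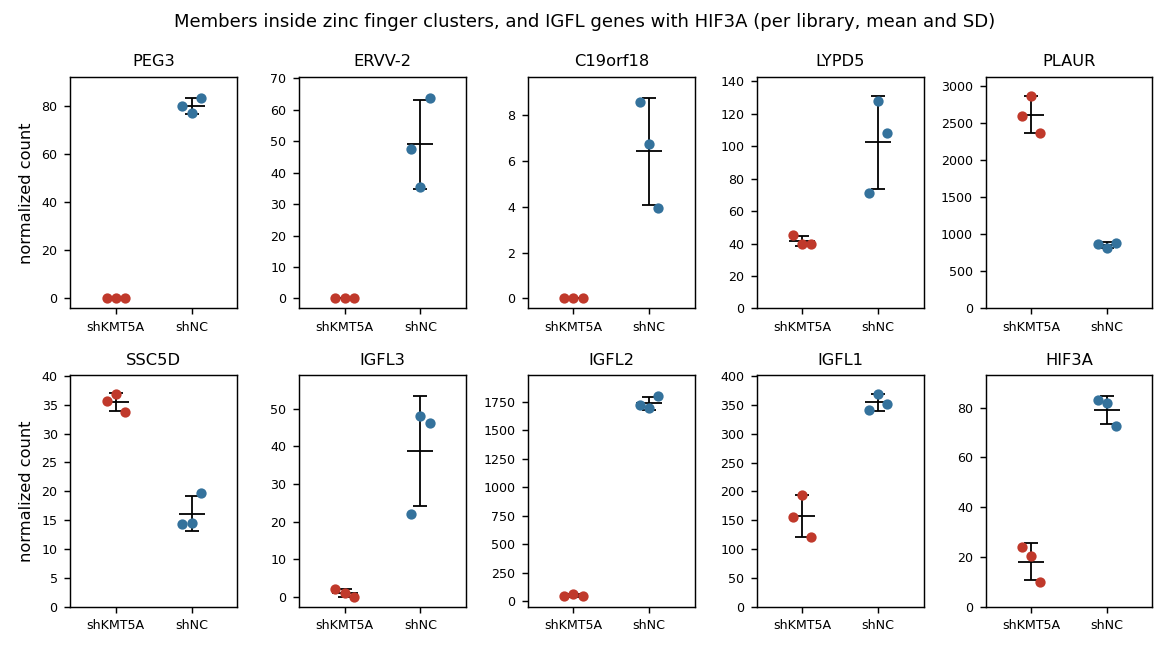
Normalized counts (vertical axes, linear) of the 6 members that start inside zinc finger clusters and of IGFL3, IGFL2, IGFL1 and HIF3A, with 3 libraries labelled shKMT5A left and 3 shNC libraries right; points are libraries, bars are mean and SD. PEG3, ERVV-2 and C19orf18 are at 0 in all libraries labelled shKMT5A, and PLAUR and SSC5D are higher in them.

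The largest falls outside the clusters were those of a small gene family. The IGFL genes encode secreted proteins distantly related to insulin-like growth factors, and 3 of them lie next to each other between 46120071 and 46231243. IGFL2 had 45.0, 65.5 and 41.7 normalized counts in the libraries labelled shKMT5A, against 1719, 1692 and 1799 in the shNC libraries. Its shNC mean was 34.2 times the mean of the libraries labelled shKMT5A (log2 fold change -5.10 ± 0.149, SE), with no overlap, as for every member. IGFL3 had 2.09, 1.02 and 0 against 21.9, 48.1 and 46.2, a ratio of 37.3 with a 95% counting interval of 12.6 to 186, resting on 3 reads. Without shKMT5A replicate 1 that ratio was 75.7.

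IGFL1 changed far less than its neighbours, with 155, 194 and 121 normalized counts in the libraries labelled shKMT5A and 342, 370 and 352 in the shNC libraries (log2 fold change -1.196 ± 0.152, SE). HIF3A, the next member along the chromosome and a hypoxia-inducible factor subunit that can restrain the other subunits, was also lower, with 18.2 ± 7.35 and 79.1 ± 5.56 normalized counts. The nearest zinc finger cluster lay 1619550 to 1796520 bases from the starts of these 4 genes. The 3 IGFL genes are near-relatives, and the sources used here do not say how reads that fit more than 1 of them were counted. IGFL1 also overlaps an antisense row of the table.

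Stretches of RefSeq promoter sequence (GRCh38.p14) are shown for the genes that fell most and have an entry, because none of them holds a CpG dinucleotide in the last 100 bases before the RefSeq start, which for IGFL2 lies inside the gene span of the file. PEG3 and ERVV-2 had no entry. The stretches are chr19:46148138-46148237 (plus strand, IGFL2), chr19:46124689-46124788 (minus strand, IGFL3) and chr19:57974535-57974634 (minus strand, C19orf18). They are in lower case since no letters are marked.
IGFL2: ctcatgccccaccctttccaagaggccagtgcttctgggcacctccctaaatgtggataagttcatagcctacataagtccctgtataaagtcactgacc
IGFL3: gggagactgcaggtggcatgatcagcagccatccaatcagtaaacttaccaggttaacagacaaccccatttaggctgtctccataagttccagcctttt
C19orf18: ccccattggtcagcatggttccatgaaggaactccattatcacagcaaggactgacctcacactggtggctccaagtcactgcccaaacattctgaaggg

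These CpG-poor windows were not typical of the lower members. Among the 77 members with a RefSeq window of 300 bases (250 before the start and 50 after it), CpG counts ran from 2 to 43 with a median of 13 in the 29 higher members, and from 2 to 49 with a median of 27.5 in the 48 lower ones. The coding genes of other chromosomes had medians of 20 (812 higher genes) and 24 (515 lower genes). A promoter rich in CpG is the usual kind at genes used by most cells.

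Interferon and innate immune genes of the chromosome were mostly higher. Of 35 such genes annotated under the name rule, 8 were in the table, 6 higher and 2 lower, with a median log2 fold change of 1.40, against 57.4% higher and a median of 1.13 in the whole table. Interferons are secreted on detection of viral nucleic acid and switch on antiviral genes through a promoter element bound by IRF and STAT factors. The list and its members were chosen with earlier results of these data known.

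IFNL1, a type III interferon (ENSG00000182393, 39296325 to 39298673, plus strand), had 13.6, 13.3 and 7.95 normalized counts in the libraries labelled shKMT5A, against 0, 0 and 0 in the shNC libraries. It was at least 12.03-fold higher against the floor of 3 reads over the group. It was the only member without a read in any shNC library. IFNL1 has near-identical relatives next to it, and none of IFNL2, IFNL3 and IFNL4 was in the table.

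HSH2D, an adaptor protein of blood cells, had 1730, 1588 and 1620 normalized counts in the libraries labelled shKMT5A, against 241, 241 and 195 in the shNC libraries (log2 fold change 2.87 ± 0.094, SE). BST2, also called tetherin, holds budding viruses at the cell surface (ENSG00000130303, 17402939 to 17405648, minus strand). It had 4147, 3930 and 4226 normalized counts against 2067, 1919 and 2098, a ratio of 2.02. Its log2 fold change of 1.02 was 0.42 with TMM scaling and 0.44 with equal totals. C19orf66, now named SHFL, blocks ribosomal frameshifting by viruses and is in no list here, so it was named after its values were seen. It had 1161, 982 and 1145 normalized counts in the libraries labelled shKMT5A, against 342, 321 and 336 in the shNC libraries. The groups did not overlap for these 3 genes, as for all 93 members, which were selected for a difference.

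BST2 had higher neighbours. CCDC194, an uncharacterised coiled-coil gene whose start lies near that of BST2, had 369, 271 and 368 normalized counts in the libraries labelled shKMT5A, against 53.3, 48.1 and 69.8 in the shNC libraries. PLVAP, which forms the diaphragms of endothelial pores, is the next member on the other side of CCDC194 and had 18 ± 7.75 and 2.91 ± 1.01 normalized counts. RELB, a subunit of NF-kB, was higher with 1379 ± 57.7 against 599 ± 21.8, and C3, the central complement protein, with 29.96 ± 13.1 against 4.17 ± 3.33. The ratio of C3 was 7.18 with all libraries and 12.2 without shNC replicate 1. PGLYRP1, which binds bacterial cell walls, and ISYNA1, which makes inositol phosphate, were the lower ones of the list, PGLYRP1 with 18.4 ± 1.86 against 46.5 ± 9.65.

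**Figure D4:**
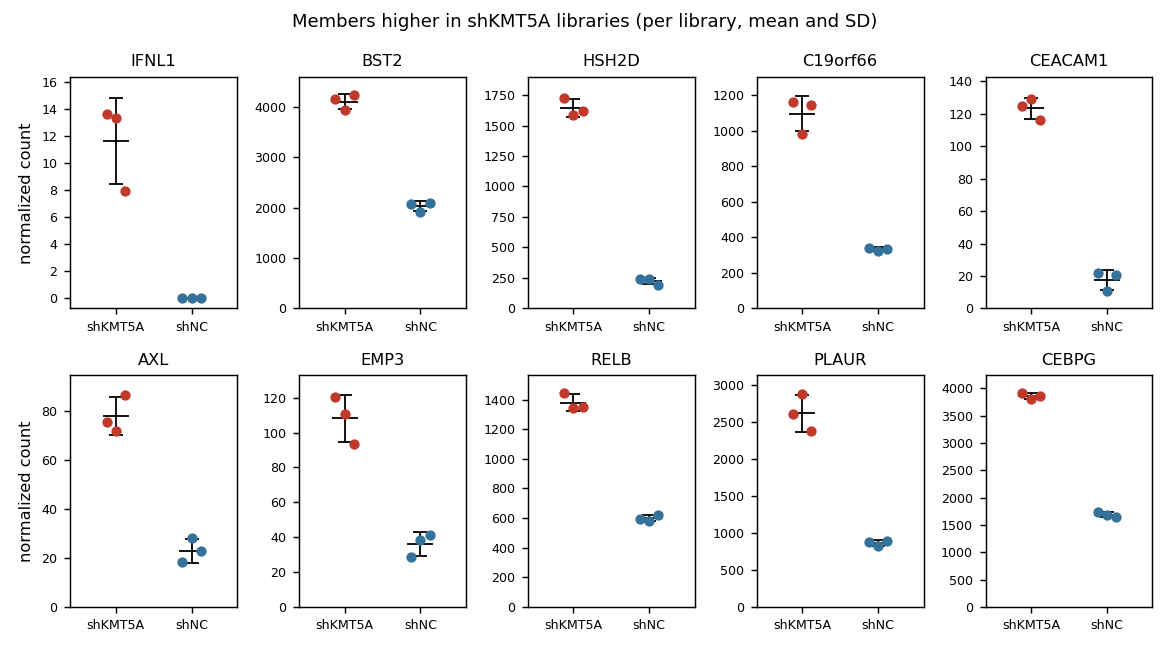
Normalized counts (vertical axes, linear) of 10 members that were higher in the libraries labelled shKMT5A (left in each panel) than in the shNC libraries (right); points are libraries, bars are mean and SD, n = 3 each. The groups do not overlap in any panel, as for every member, and IFNL1 is at 0 in all shNC libraries.

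The core of the interferon-stimulated response element, searched as GAAA, any 2 bases and GAAA again on either strand with overlaps counted once per gene, was found in the RefSeq windows of 6 of the 77 members with an entry (7.79%), against 4.38% of all genes and 3.57% of all windows of the same length. All 6 members were higher, where 29 of the 77 members with an entry were: BST2, C19orf66, IFNL1, CEACAM1, AXL and EMP3. The share with the letters among the higher genes of other chromosomes was not counted. HSH2D, C3 and RELB had no entry. A match is a description of letters and not a bound site. In all 6 genes the window with the letters belongs to a RefSeq start inside the gene span of the file. The matches of BST2 and IFNL1 lie before that span, and those of C19orf66, AXL, EMP3 and CEACAM1 lie inside it. An NF-kB form, GGGA, any 2 bases and TTCC, was found in 0 members and 1.97% of all genes. A C/EBP-ATF form, TGATGNAA on either strand, was found in 5 members, with CEBPG, DMKN and PLIN4 higher and LYPD5 and MISP3 lower, and in 4.46% of all genes.

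Stretches of 100 bases with the element, all within the 250 bases before a RefSeq start, are shown for 4 of the 6 genes, to show the letters that were matched, with the matched letters in capitals (GRCh38.p14). They are chr19:17405703-17405802 (minus strand, BST2), chr19:39296157-39296256 (plus strand, IFNL1), chr19:10086217-10086316 (plus strand, C19orf66) and chr19:42528543-42528642 (minus strand, CEACAM1). In BST2 and in IFNL1 there are 2 overlapping matches, and those of IFNL1 are on the other strand.
BST2: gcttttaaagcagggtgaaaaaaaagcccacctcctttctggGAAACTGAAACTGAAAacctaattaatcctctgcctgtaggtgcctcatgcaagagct
IFNL1: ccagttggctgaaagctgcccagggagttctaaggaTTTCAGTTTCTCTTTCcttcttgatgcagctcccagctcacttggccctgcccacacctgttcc
C19orf66: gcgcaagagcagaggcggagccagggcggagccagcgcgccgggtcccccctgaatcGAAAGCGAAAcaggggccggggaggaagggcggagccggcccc
CEACAM1: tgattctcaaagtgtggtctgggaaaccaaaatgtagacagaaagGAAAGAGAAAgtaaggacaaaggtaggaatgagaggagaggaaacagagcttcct

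Adhesion and receptor genes of the immunoglobulin superfamily gave 4 members of 74 genes, 3 higher and 1 lower, where 38.7% of all members were higher. Of all 1142 annotated coding genes under the name rule, 93 were in the table. CEACAM1, an adhesion receptor that dampens immune cells, had 125, 129 and 116 normalized counts in the libraries labelled shKMT5A, against 21.9, 10.6 and 20.6 in the shNC libraries. NPHS1, nephrin of the kidney filter, had 78.5, 83.9 and 88.4 against 10.5, 1.93 and 7.86, a ratio of 12.4. CEACAM19 was higher with 315 ± 37.2 and 137 ± 9.75. The shNC values of NPHS1 and CEACAM1 scattered most in proportion, but stayed far below those of the other group.

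Leukocyte receptor and signalling genes went the other way. Of 38 genes, the table held 5, each of them lower, where 61.3% of all members were lower. Their median log2 fold change was -1.75. ARHGEF1, a guanine nucleotide exchange factor, had 1394 ± 18.4 and 3629 ± 247 normalized counts. CFD, the protease that starts the alternative complement pathway, had 148 ± 17.8 and 399 ± 44.2, and is counted again with the proteases below. TBXA2R, the thromboxane receptor, had 13.99 ± 4.26 and 48.7 ± 8.29. CD79A, a part of the B cell receptor and also 1 of the leukocyte markers above, had 1.37 ± 1.56 and 10.9 ± 0.96, and its ratio of 7.97 became 20.9 without shKMT5A replicate 2. ADGRE1, the human counterpart of the mouse macrophage antigen F4/80, had 3 reads over the libraries labelled shKMT5A and 31 over the shNC libraries, a ratio of 9.76 with a 95% counting interval of 3.05 to 49.95. The leukocyte marker sums were lower too, with 3 of the 4 markers lower and 1 higher, and their part in these values was not tested.

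Secreted proteases and related genes were mostly lower, as were 61.3% of all members. Of the 15 kallikrein-related peptidases, 2 were in the table, both lower. KLK11 had 14.7, 7.17 and 8.94 normalized counts in the libraries labelled shKMT5A, against 51.4, 50.1 and 51.1 in the shNC libraries, and KLK4 had 3.05 ± 0.94 and 11.9 ± 2.11. Of 23 other proteases and inhibitors 3 were in the table, C3 higher and CFD and ADAMTSL5 lower. ADAMTSL5, a microfibril-associated relative of the ADAMTS proteases, had 218 ± 30.8 and 515 ± 12.5.

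Epithelial differentiation and junction genes were divided. Of 54 genes 11 were in the table, 7 higher and 4 lower, where 38.7% of all members were higher. Their median log2 fold change was 1.27. The list was wide and includes PLVAP of endothelium, the hormone AMH and the retroviral envelope gene ERVV-2. The split therefore does not describe epithelial genes alone. Beside CEACAM1, PLVAP and PLAUR, the higher ones were UPK1A, a uroplakin of the bladder lining, FCGBP, a mucus protein of the gut, AMH, the anti-Müllerian hormone, and DMKN, dermokine of the skin. DMKN had 2170 ± 75.2 and 1071 ± 55.9 normalized counts, FCGBP 70.4 ± 4.75 and 27.5 ± 10.3. The lower ones were ERVV-2, LYPD5, PALM and EPS8L1. EPS8L1, an actin regulator, had 27.7 ± 7.77 and 87.9 ± 9.42, and PALM, which shapes the plasma membrane, 533 ± 63.6 and 1074 ± 113. Of the 4 epithelial markers given above, 3 were lower and 1 higher in the libraries labelled shKMT5A, with a lower sum, and their part in these values was not tested.

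Replication, repair and cell cycle genes were lower with 1 exception. Of 45 genes 7 were in the table, 6 of them lower, where 61.3% of all members were lower. CNTD2, a cyclin-like gene, was higher (324 ± 37.6 and 139 ± 14.5). The median log2 fold change of the 7 genes was -1.19. UHRF1, which brings the maintenance methyltransferase to newly copied DNA, had 1093, 1109 and 1138 normalized counts in the libraries labelled shKMT5A, against 2251, 2404 and 2490 in the shNC libraries. LIG1, the ligase that joins Okazaki fragments, had 733, 810 and 750 against 1692, 1688 and 1862. CCNE1, cyclin E1 of the G1/S transition, had 203, 199 and 216 against 352, 458 and 426. The 3 genes had similar ratios of about the fold threshold, with shNC means 2.14, 2.29 and 2.002 times those of the libraries labelled shKMT5A. The larger changes in the list were those of C19orf57, now BRME1, a partner of BRCA2 in meiosis (38.7 ± 8.92 and 168 ± 20.6), CCDC61, a centrosome protein (130 ± 7.57 and 510 ± 33.1), and PRR19, a proline-rich protein of meiotic crossing over in mice (11.2 ± 1.48 and 37.4 ± 7.10). CCDC61 overlaps a microRNA of the table on the same strand and the row of PGLYRP1 on the opposite strand. Its reads may be shared with the microRNA, and with PGLYRP1 if counting ignored the strand.

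Chromatin and transcription regulators were lower in 5 of 7 cases, out of 84 genes in the list, where 61.3% of all members were lower. Lower were PEG3, HIF3A, UHRF1, DPF1, a subunit of the BAF remodelling complex in neurons (84.5 ± 7.10 and 338 ± 47.8), and HMG20B, a partner of the CoREST repressor (533 ± 36.4 and 1232 ± 42.7). Higher were RELB and CEBPG. CEBPG, a leucine zipper factor that pairs with ATF4, had 3920, 3800 and 3860 normalized counts in the libraries labelled shKMT5A, against 1729, 1685 and 1640 in the shNC libraries (log2 fold change 1.196 ± 0.050, SE). Among the methyltransferases of the chromosome, KMT5C and KMT2B were in the list and not in the table.

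Stress and apoptosis genes had 8 of 45 in the table, 3 higher and 5 lower, where 38.7% of all members were higher. AXL, a receptor kinase that binds GAS6, had 77.8 ± 7.69 and 22.9 ± 4.92 normalized counts, and ANGPTL4, a hypoxia- and lipid-induced inhibitor of lipoprotein lipase, had 590 ± 97.3 and 216 ± 12.5. GADD45B, a stress-induced signalling protein, was lower with 352 ± 32.9 and 883 ± 30.1, as was BCL2L12 with 354 ± 14.2 and 813 ± 7.13. SIPA1L3, a scaffold of epithelial polarity, had 568 ± 23.95 and 1330 ± 37.1. PLK5, a polo-like kinase family member, had 1 read over the libraries labelled shKMT5A and 23 over the shNC libraries, a ratio of 21.2 with a 95% counting interval of 3.53 to 896.

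Lipid metabolism genes went both ways. Of 61 genes 11 were in the table, 4 higher and 7 lower, where 38.7% of all members were higher. Their median log2 fold change was -1.26, against -1.18 over all members. PLIN5, which coats lipid droplets in oxidative tissue (ENSG00000214456, 4522531 to 4535224, minus strand), had 20.9, 33.8 and 35.8 normalized counts in the libraries labelled shKMT5A, against 0, 0.963 and 0.983 in the shNC libraries. The ratio of 46.5 rests on 2 shNC reads and has a 95% counting interval of 12.7 to 395. PLIN4, its neighbour and relative, had 26.2 ± 6.24 and 9.71 ± 5.23. PLA2G4C, a cytosolic phospholipase, was higher with 274 ± 21.1 and 103 ± 3.21.

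The lower lipid genes changed by 2.4 to 6.5 times. APOE, the apolipoprotein that carries cholesterol, had 28.3, 33.8 and 29.8 normalized counts in the libraries labelled shKMT5A, against 201, 211 and 187 in the shNC libraries (log2 fold change -2.67 ± 0.147, SE). CERS4, a ceramide synthase, had 96.1 ± 9.50 and 343 ± 36.3, and LRP3, a receptor of the LDL receptor family, 288 ± 31.5 and 850 ± 20.4. SULT2B1, which adds sulfate to cholesterol, had 5.23, 2.05 and 1.99 against 18.1, 19.3 and 13.8, and its ratio of 5.51 was 8.44 without shKMT5A replicate 1. MPND, PLPPR2 and S1PR5 were lower too. MPND overlaps a non-coding row of the table, and its description names an MPN domain and no role in lipid metabolism. RELB was the next member after APOE along the chromosome, and it went in the opposite direction.

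Neuronal, muscle and cytoskeleton genes went both ways. Of 69 neuronal and synaptic genes 8 were in the table, 5 higher and 3 lower, where 38.7% of all members were higher. The higher ones include CNTD2, also counted with the cell cycle genes, and PTPRH, described only as a receptor-type tyrosine phosphatase. GRIK5, a kainate receptor subunit, had 59.7, 24.6 and 43.7 normalized counts in the libraries labelled shKMT5A, against 2.86, 9.63 and 8.85 in the shNC libraries. DLL3, an inhibitory Notch ligand, had 23 reads over the libraries labelled shKMT5A and 1 over the shNC libraries, a ratio of 24.4 with a 95% counting interval of 3.95 to 1002 that became 12.7 without shKMT5A replicate 2. FGF22, a growth factor of synapse formation, was lower with 10.5 ± 0.352 and 39.3 ± 6.85. Of 46 muscle and cytoskeleton genes 10 were in the table, 4 higher and 6 lower, against the same 38.7% higher. FBN3, a fibrillin, had 14.7, 46.1 and 31.8 against 113, 117 and 111, EMP3, a membrane protein of 4 spans, 108 ± 13.7 and 36.1 ± 6.68, and MYH14, a non-muscle myosin, 624 ± 94.1 and 1503 ± 63.0.

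The members with the highest normalized counts depended on the scaling for their size. On the higher side these were BST2, CEBPG, PLAUR and LTBP4, which tethers latent TGF-beta to the matrix and had 2849 ± 144 and 1167 ± 82.5 normalized counts. On the lower side they were FSTL3, an activin antagonist, with 2707 ± 29.3 and 5989 ± 286, ARHGEF1, THOP1, an oligopeptidase, with 1503 ± 18.97 and 3104 ± 113, and MISP, a spindle positioning protein, with 1395 ± 60.01 and 2846 ± 229. With TMM scaling over the table, which shifts the median of all its genes by -0.59, the log2 fold changes were 0.42 for BST2, 0.60 for CEBPG, 0.69 for LTBP4 and 1.004 for PLAUR. They were -1.74 for FSTL3 and -1.64 for THOP1. FSTL3, PALM and MISP are consecutive members on the short arm. The 23 members in none of the 12 lists held 7 higher and 16 lower genes.

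Counts along the chromosome varied between windows of 5 Mb. On the short arm side 12 of 40 members were higher (30%) and on the long arm side 24 of 53 (45.3%). The first 5 Mb held 4 higher and 14 lower members, and the stretch from 10 to 15 Mb 1 higher and 7 lower. From 15 to 20 Mb, where HSH2D and BST2 lie, 5 were higher and 2 lower, and from 35 to 40 Mb, where IFNL1 lies, 7 were higher and 3 lower. From 45 to 50 Mb, where the IGFL genes lie, 4 were higher and 11 lower. The windows with the most zinc finger rows, 50 to 55 Mb with 19 and 35 to 40 Mb with 14, had 2 of 6 and 7 of 10 members higher.

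Neighbouring members shared a direction in 51 of 92 pairs (55.4%), against 1111 of 1686 pairs (65.9%) on the other chromosomes. Pairs whose starts lay within 100 kb shared it in 17 of 19 cases (89.5%), 14 both lower and 3 both higher, and such pairs on the other chromosomes in 291 of 336 (86.6%). The 2 close pairs that split were APOE with RELB and PLA2G4C with LIG1. Among close pairs, PLIN4 with PLIN5, IGFL3 with IGFL2 and IGFL2 with IGFL1 are relatives. CCDC61 overlaps PGLYRP1, and those 2 genes can share reads if strand was ignored.

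Chromosome 19 had the lowest share of higher genes of the 23 chromosomes with at least 10 such coding genes, closely followed by chromosome 16 with 26 of 66 (39.4%), while chromosome 10 had the highest with 78 of 95 (82.1%). GC content differed between members and other genes, and its part in the result was not tested. Chromosomes 19 and 16 had the highest median GC (60.71% and 58.21%) and the lowest shares. Chromosome 4 had the lowest median GC (41.27%) and 77.6% higher. Some chromosomes departed from this order: chromosome 18 had 45.5% higher at a median GC of 42.65%, and chromosome 22 had 67.5% higher at 54.33%. The median GC of the longest annotated transcript was 60.7% for the members and 49.1% for the coding genes of other chromosomes. It was 59.2% for the higher and 61.0% for the lower members, and 47.1% and 52.1% for the higher and lower genes of the other chromosomes. The genes were split into 4 bins of equal gene number by GC on the other chromosomes, a choice made after seeing the data. The share of higher genes there was 74.8% in the lowest bin, 61.8% and 57.1% in the next, and 45.4% in the highest. Of the members, 68 fell in the highest bin, and 26 of these were higher (38.2%), against 45.4% on the other chromosomes. In the third bin 8 of 18 members were higher (44.4%), in the second 2 of 7 (28.6%), and the lowest held none.

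**Figure D5:**
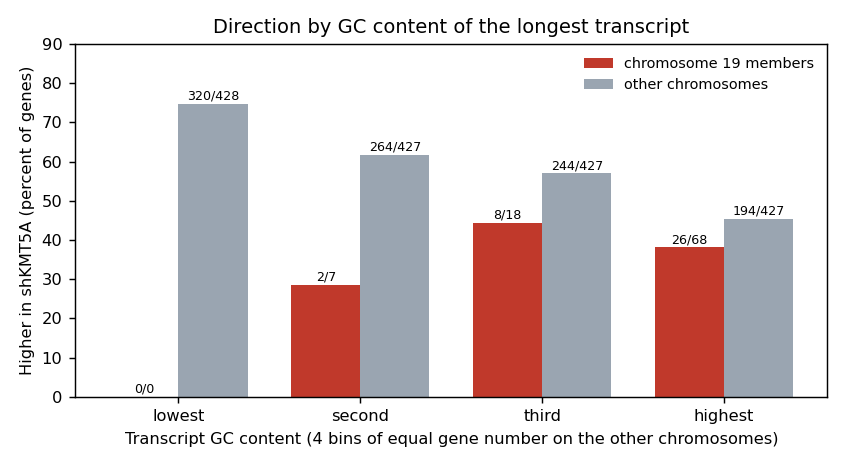
Percent of genes higher in the libraries labelled shKMT5A (vertical axis, from 0) by bin of the GC content of the longest transcript (horizontal axis), for chromosome 19 members (left bars) and coding genes of other chromosomes (right bars), with higher genes over all genes above each bar. On the other chromosomes the share is 74.8% in the lowest bin and 45.4% in the highest, and 68 of the 93 members are in the highest bin.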

How the data were processed

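RNA of 6 RKO libraries was sequenced. Per the submitters' processing notes, the tools were DESeq2 1.20.0, featureCounts 1.5.0-p3, HISAT2 2.0.5, fastp and CASAVA 1.8, and hg38 (GRCh38) was the build. No source used here says if strand was used in counting. The authors' deposited signal values were reads per gene scaled by 1 factor for each library, as the values show: 100% were whole multiples of 1 value per library (within 0.001). The deposited log2 fold changes and p-values are the authors' own, and no row has an adjusted p over 0.05 or a log2 fold change under 1 in size.

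Libraries were assigned by treatment and number in the column names. limma 3.58.1 (trend, robust; R 4.3.3) was fitted to log2(value + 1) of all genes with a mean of at least 1, shKMT5A minus shNC, with Benjamini-Hochberg adjustment; no p is used as support, since the table was selected on the same contrast. edgeR 4.0.16 was run on the reads of 5 libraries, without shKMT5A replicate 3, although its values too were whole multiples of 1 step (0.9935). Ratios resting on 1 to 3 reads carry exact 95% counting intervals, and groups at 0 a floor of 3 reads over the group. The fit was tested on simulated data. Positions of all 93 members equalled GENCODE 29, and 93 had a current symbol, 4 of them different. Sequences are from RefSeq.

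The members, lists and tests were chosen with earlier results of these data known. Named members follow a rule: of members whose groups do not overlap and whose higher group averages at least 10 normalized counts, the 8 with the highest and the 8 with the lowest fold change, the 4 highest means in each direction, the 2 largest changes of each list with at least 2 members in the table, the 3 largest changes inside clusters, those at 0 in a group and the 2 nearest to the threshold, with KMT5A beside them. This names 37 members, and others are named as examples.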

Additional observations from a re-analysis of the deposited data

How the results depend on the processing

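The signs of all 36 higher and 57 lower members held under every alternative in which the member was measured. The calls were 34 and 57 with TMM, 35 and 57 with equal totals, and 36 and 56 with a log2 fold change of 1 or more in size added; the other alternatives run on all members called 36 and 57. These include edgeR on the reads of 5 libraries (chosen after seeing the data), which called 1653 higher and 1228 lower genes of the table. With a mean of at least 10 normalized counts, 34 and 52 of 86 remained. This stability is largely built in, since the rows were chosen for a difference between these same libraries. Equal medians, TMM and equal totals shifted the median of the table by -0.24, -0.59 and -0.57 and a pseudocount of 5 by -0.10; no member changed sign. The replicate block left 36 and 57, and same-numbered libraries did not deviate together (correlations of -0.0358, -0.0307 and 0.00837). These rows were selected for a difference between the groups, so the correlations cannot settle whether the numbers mark pairs.

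Counts by zone rest on few genes. Inside clusters, 2 higher and 4 lower became 5 and 8 with gaps of up to 1 Mb, 0 and 2 with clusters of table rows, 1 higher without the immune list and 1 lower without the 3 members at 0 (chosen after seeing the data). Near clusters, 12 and 18 became 6 and 9 with table rows and 3 and 5 within 250 kb. The median inside, -2.04, was -1.24 with gaps of 1 Mb, without PEG3 and with a mean of at least 10, -4.22 with table rows, -2.84 without the immune list, -2.46 with TMM, and reversed to 1.10 without the 3 members at 0. Near clusters it was -1.08 with clusters of 3 genes, -1.14 within 250 kb and -1.81 with TMM, and farther away -1.74 with TMM. The TMM medians moved with the table's median while the counts by zone stayed at 2 and 4, 12 and 18, and 22 and 35. The cause of the other changes was not tested.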
